A study of Arabidopsis thaliana with 3 samples.

Results

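Probe sets for genes of the plastid genome were described in 3 expression arrays of cells labelled mature endodermis, sorted from Arabidopsis thaliana roots. The plastid probe sets were chosen by the leading number of their identifiers, which run in 2 blocks on these Affymetrix arrays, and not by their signals. This rule was set with earlier results of these data known. The rule found 72 of the 22746 plant probe sets. The platform annotation gave a gene name to 69 of them, all on the plastid genome in the RefSeq gene table (assembly TAIR10.1), and no name to the other 3. Of the named ones, 6 cover both copies of a gene in the inverted repeat.

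All 3 arrays belong to 1 group: wild type Columbia seedlings grown for 6 days, with 1 array for each biological replicate. The labels describe tips of about a centimetre that were digested to protoplasts, from which cells with green fluorescent protein were sorted. The series text names the marker line E30. The labels do not say how seedlings were divided among replicates, so the p-values below measure the spread between these 3 arrays. The series has no control group, and no other cell type or genotype was analysed here.

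Plastids keep a small genome of bacterial origin, which encodes part of the photosynthetic machinery, of the plastid ribosome and of 1 of the plastid's RNA polymerases, together with a few genes of other metabolism. Its genes are copied by that plastid-encoded enzyme and by phage-type polymerases encoded in the nucleus, many of them as transcripts that span several genes. Root plastids are mostly not green, but carry out steps such as fatty acid synthesis. Most plastid RNAs lack a stable poly(A) tail, while Affymetrix's amplification in 2 cycles starts from poly(A). The signals therefore do not give the share of plastid RNA in the cell, and the effect of this step on them was not tested.

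The label could be checked by few genes. Of the 22 marker genes listed for endodermis and other root cell types, 2 matched a probe set that the annotation gives to that gene alone. SGN3, a receptor kinase of the endodermis that is needed for a closed Casparian strip, had signals of 3421, 5068 and 5823 in replicates 1, 2 and 3. EXPA7, a root hair expansin, had 18.0, 71.5 and 192 in the same order, lowest in replicate 1 and highest in replicate 3. Among all plant probe sets SGN3 ranked at the percentiles 98.7, 99.4 and 99.6, and EXPA7 at 25.0, 56.5 and 74.0. Both lay above the reference level described below (353-fold and 4.76-fold, adjusted p = 3.57e-05 and 0.0331 in limma's test), as did 69.1% of all plant probe sets. The Casparian strip genes CASP1 to CASP5 and the other markers were not matched here, so how pure the sorted cells were was not checked.

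All 72 plastid probe sets lay above the reference level in limma's test (Benjamini-Hochberg adjusted p at most 0.00419), against 69.1% of all plant probe sets, and 0 lay below it. As reference served the 90th percentile of 27 control probe sets for Bacillus subtilis genes, which stood at 14.2, 13.1 and 12.3 in replicates 1, 2 and 3. The median plastid probe set lay 60.2-fold above it, and the median plant probe set 4.30-fold. Against a stricter level, the median signal of all plant probe sets in each array (55.1, 53.3 and 64.7), 64 of the 72 lay above it and 0 below it. Of all plant probe sets, 38.9% lay above that level and 37.8% below it. With the highest Bacillus probe set as the level, 68 of 72 passed, against 51.2% of all plant probe sets. In bulk RNA, fewer cells of a type and less RNA per cell cannot be told apart.

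The plastid probe sets were bright as a group, with a wide range among themselves. Their median signal was 1065, 791 and 788 in replicates 1, 2 and 3, against 55.1, 53.3 and 64.7 for all plant probe sets. The median plastid probe set ranked at the percentiles 94.5, 92.3 and 92.6 of all plant probe sets. By mean level, 44 of 72 (61.1%) fell in the top decile, which by definition holds 10% of plant probe sets, and 0 fell in the 4 lowest deciles. Means ran between 39.3 (244999_at, rpoB) and 7916 (245013_at, atpE). Of the 72, 34 had a mean of at least 1000, 31 a mean between 100 and 1000, and 7 a mean under 100. Among the 100 brightest plant probe sets 5 were plastid ones, and among the 10 brightest there were 0. Probe sets differ in their response, so signals of different genes are set side by side below without ranking the transcripts.

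**Figure D1:**
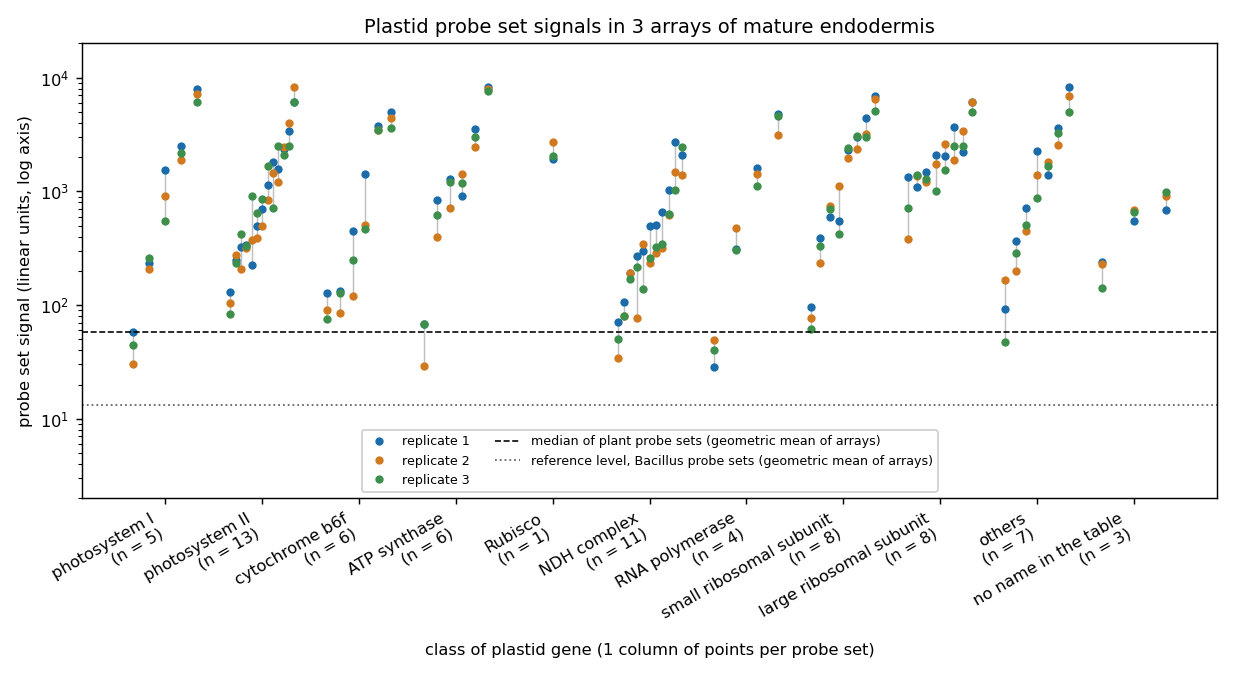
Signal of each of the 72 plastid probe sets (log axis) in replicates 1, 2 and 3, grouped by class of gene, with 1 column of points per probe set and a grey line over its range. The dashed line is the median of all plant probe sets and the dotted line the Bacillus reference level; all points lie above the dotted line, and most lie above the dashed one.

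Photosystem I genes had 5 probe sets, which all passed the test, and 4 of them also lay above the median of plant probe sets. Beside this and the class counts below stand 64 of all 72 plastid probe sets above that median. Of all plant probe sets, 38.9% lay above that median and 69.1% above the reference level. psaB (245006_at), which encodes 1 of the paired core proteins of the reaction centre, had signals of 7992, 7239 and 6136 in replicates 1, 2 and 3, 537-fold over the reference level (log2 difference 9.07 ± 0.21, SE, adjusted p = 3.56e-05). Its partner psaA (245007_at), which lies next to it on the plastid genome, had 57.4, 30.1 and 44.8 (3.24-fold, log2 difference 1.69 ± 0.26, adjusted p = 0.00246). Each probe set stayed at its own level in all 3 arrays, and as probe sets differ in response the 2 signals do not rank the transcripts. psaA did not differ from the median of plant probe sets past the threshold (log2 difference -0.43 ± 0.25, adjusted p = 0.178). psaC, the iron-sulphur subunit that passes electrons to ferredoxin, had 235, 207 and 258, and the small subunits psaI and psaJ had means of 2189 ± 309 and 994 ± 496 (SD, n = 3).

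Photosystem II genes were measured by 13 probe sets, the largest class, and all 13 lay above both the reference level and the median of plant probe sets. psbM, a small subunit at the interface of the dimer, had 6085, 8214 and 6158 in replicates 1, 2 and 3, the highest mean of the class. psbD, which encodes a core protein of the reaction centre, had 131, 105 and 83.0, the lowest mean. psbB and psbC, the inner antenna proteins, had 327 ± 11.2 and 1324 ± 556 (SD, n = 3). psbB was the steadiest of the 72 plastid probe sets, with 337, 315 and 328 in the 3 arrays, a 1.07-fold range. psbH, a small phosphoprotein subunit, was the most variable of the 72, with 224, 369.8 and 902, lowest in replicate 1 and highest in replicate 3, a 4.03-fold range.

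The cytochrome b6f complex, which links the photosystems, was measured by 6 probe sets, of which 6 lay above the reference level and 5 above the median of plant probe sets. petA and petB, its cytochromes, had 4979, 4373 and 3639.7 and 3788, 3443 and 3488 in replicates 1, 2 and 3. Both were bright in every array. petD, another of its large subunits, had 127, 91.0 and 75.4. It was the 1 member of this class that did not pass against the median of plant probe sets (log2 difference 0.73 ± 0.27, SE, adjusted p = 0.0553 in limma's test). Among the small subunits, petL had 1416, 508 and 468, petN had 446, 119.8 and 251, and petG had 132, 85.9 and 128. All 3 were highest in replicate 1.

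The plastid ATP synthase had 6 probe sets. atpE (245013_at), the epsilon subunit of the catalytic head, had 8271, 7906 and 7569.6 in replicates 1, 2 and 3, 600.4-fold over the reference level and the highest mean of the 72. atpB, the beta subunit, had 3540.0, 2456 and 2992, and atpA, the alpha subunit, 904, 1423 and 1177. atpI, a membrane subunit, had 68.7, 29.2 and 68.1, near the median of plant probe sets (log2 difference -0.16 ± 0.30, SE, adjusted p = 0.65 in limma's test). rbcL (245015_at), the large subunit of the carbon-fixing enzyme Rubisco, had 1931, 2740.3 and 2032, 168-fold over the reference level.

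The NDH complex, which carries electrons around photosystem I, had the lowest class median of those with several probe sets, 494, 287 and 257 in replicates 1, 2 and 3 over 11 probe sets. All 11 lay above the reference level and 9 above the median of plant probe sets. Its highest mean was that of ndhC, with 2068, 1402 and 2430.0, and its lowest that of ndhH, with 71.3, 34.2 and 50.0. ndhH and ndhB did not pass against the median of plant probe sets (adjusted p = 0.504 and 0.057 in limma's test). ndhF varied most within the class, with 269, 76.9 and 214, lowest in replicate 2.

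Genes for the plastid's own gene expression were bright in most cases. The plastid-encoded RNA polymerase has 4 plastid genes. rpoA (244978_at), the alpha subunit, had 4748, 3117 and 4605 in replicates 1, 2 and 3, 310.0-fold over the reference level. rpoC1 and rpoC2, parts of the beta-prime subunit, had 1588, 1414 and 1118 and 308, 479 and 306. rpoB (244999_at), the beta subunit, had 28.5, 49.2 and 40.2, 2.91-fold over the reference level (log2 difference 1.54 ± 0.27, SE, adjusted p = 0.00419 in limma's test), the smallest difference of the 72. It was faint in all 3 arrays, below the median of plant probe sets in each, though that difference did not pass (log2 difference -0.58 ± 0.25, adjusted p = 0.0857).

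The ribosomal protein genes with a name had 16 probe sets, 8 for each subunit. All 8 of the large subunit lay in the top decile of mean level, and 6 of 8 of the small subunit. In the small subunit, rps7 had 6919, 6425 and 5054 and rps4 4446, 3166 and 3004 in replicates 1, 2 and 3. rps19 and rps3 had means of 2817 ± 405 and 2228 ± 238 (SD, n = 3). rps2 had 681 ± 75.6 and rps18 317 ± 76.1 (SD, n = 3). These proteins all belong to the same ribosomal subunit. rps14 had 95.2, 76.4 and 61.3, and was the 1 ribosomal probe set that did not pass against the median of plant probe sets (adjusted p = 0.195 in limma's test).

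In the large subunit, rpl2 had the highest mean, with 6051, 6069 and 4984 in replicates 1, 2 and 3, and rpl36 the lowest, with 1339, 382 and 707. rpl20, rpl16 and rpl14 had means of 2696 ± 615, 2681 ± 899.8 and 2058 ± 536 (SD, n = 3). rpl33 and rpl22 had 1319.9 ± 136 and 1283 ± 164 (SD, n = 3). All of these lay above the median of plant probe sets. rpl36, a very short protein, was 1 of the 5 most variable plastid probe sets, with replicate 1 highest and replicate 2 lowest. The probe sets without a name that the rule places in this class, 244979_at and 244981_at, had 686, 908 and 985 and 543, 691 and 659. The third without a name, 244990_s_at, lies outside this class and had 238, 231 and 140.0.

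The class of 31 photosynthesis probe sets (photosystems, cytochrome b6f, ATP synthase and Rubisco) was set beside the 18 of the gene-expression class. The gene-expression class follows the rule, which leaves out rps7, rps15, rpl2 and rpl23. The photosynthesis median was 1132, 718 and 863 in replicates 1, 2 and 3, and the gene-expression median 1406, 1285 and 1195. The log2 difference, photosynthesis minus gene expression, was -0.31, -0.84 and -0.47 in the 3 arrays, a mean of -0.54 ± 0.27 (SD, n = 3). The photosynthesis median was the lower in each array. With the 11 NDH probe sets added to photosynthesis the difference was -1.12. With rps7, rps15, rpl2 and rpl23 added to gene expression instead (22 probe sets), it was -0.62. The classes overlapped widely: means ran between 44.1 and 7916 for photosynthesis and between 39.3 and 4157 for the 18 gene-expression probe sets. Over the 22 the highest mean was 6133. No test was made, since probe sets of different genes do not measure relative amounts and 3 arrays are too few for an exact test. The classes were also chosen with earlier results of these data known.

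Among the genes of other functions, clpP (244971_at), a subunit of the plastid protease, had 8225, 6932 and 5017 in replicates 1, 2 and 3, the highest mean of the 7. accD, a subunit of the acetyl-CoA carboxylase that starts fatty acid synthesis, had 1393, 1798 and 1656. Both are known targets of the nuclear-encoded polymerase, clpP also of the plastid-encoded one. The other listed targets of that enzyme were the 3 rpo genes of the rpoB unit, given above, and ycf2, which had 91.6, 167 and 47.5. The 6 listed targets therefore ran between 39.3 and 6725 in mean signal, and 4 of 6 lay above the median of plant probe sets. Above that median lay 64 of all 72 plastid probe sets and 38.9% of all plant probe sets. ycf1, an envelope protein linked to protein import, had 3629, 2566 and 3289.5. cemA, an envelope membrane protein, had 2264, 1396 and 878, highest in replicate 1. ycf3 and ycf4, which help to assemble photosystem I, had means of 282 ± 83.3 and 556 ± 138 (SD, n = 3).

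In several units of the plastid genome, genes that lie together had unlike signals. In the psaA-psaB-rps14 unit the means were 44.1, 7122 and 77.6. In the psbD-psbC-psbZ unit they were 106, 1324 and 3277, and in the rpoB-rpoC1-rpoC2 unit 39.3, 1373 and 365. In the unit between rpl23 and rpoA, in contrast, the 9 named members had means between 809 and 5701, and all 9 lay above the median of plant probe sets. Means also lay closer together in the psbE-psbF-psbL-psbJ unit, between 509 and 1768, and in the atpB-atpE unit, at 2996 and 7916. Probe response, processing of the shared RNA and its decay cannot be told apart in such signals.

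**Figure D2:**
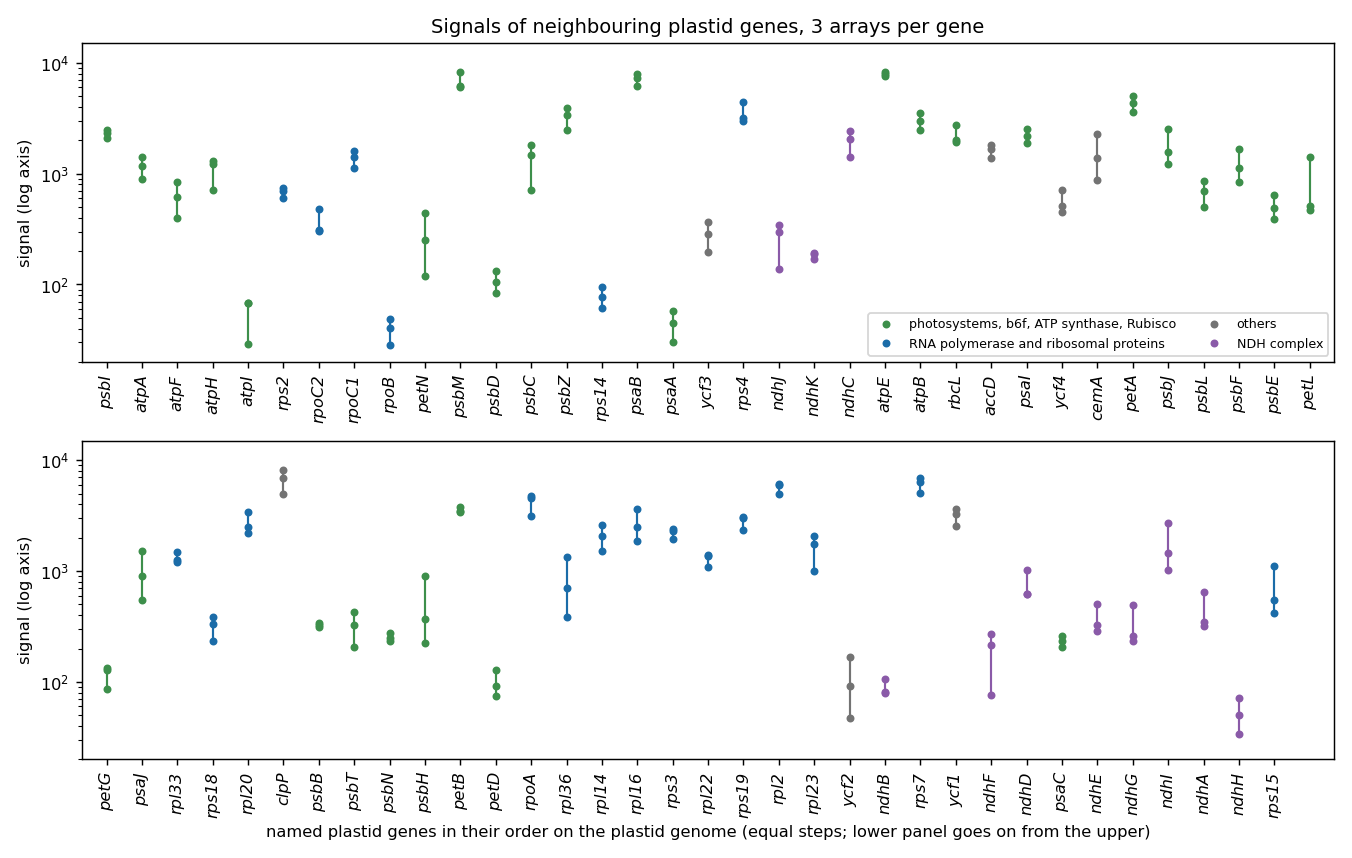
Signal (log axis) of the 69 named plastid genes in their order on the plastid genome, at equal steps, with 3 points per gene for the 3 arrays and colours for the class of gene. Faint genes (rpoB, psaA, atpI, ndhH) stand beside bright ones (rpoC1, psaB), and the ribosomal genes between rpoA and rpl23 lie between 382 and 6069 in every array.

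The plastid probe sets were more often highest in replicate 1 than plant probe sets in general. Replicate 1 was the highest array for 43 of 72 (59.7%), against 29.0% of all plant probe sets, and the lowest for 11 of 72 (15.3%), against 38.8%. In the top decile of mean level, replicate 1 was highest for 24 of 44 plastid probe sets (54.5%), against 37.3% of all 2275 plant probe sets there. The median log2 deviation of the plastid probe sets from their mean over the arrays was 0.21 in replicate 1, -0.09 in replicate 2 and -0.06 in replicate 3. For all plant probe sets it was -0.04, -0.03 and 0.11. After quantile normalization between arrays, replicate 1 was highest for 40 of 72 (55.6%), against 35.0% of all plant probe sets. The median log2 deviation of the plastid probe sets in replicate 1 was then 0.14, against 0.01 for all plant probe sets. The probe sets of an array share its RNA, so no test of this shift was made.

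Some control values also set replicate 1 apart, and others did not. The hybridisation spikes were lowest there in 18 of 18 probe sets, with a median log2 deviation of -0.31. The ratio of 3′ to 5′ signal in replicates 1, 2 and 3 was 16.5, 10.7 and 9.26 for the second actin design, but 9.45, 10.5 and 11.7 for the first. For GAPDH it was 17.1, 12.7 and 12.0 in the first design and 3.26, 3.11 and 2.24 in the second. For ubiquitin it was 5.81, 5.54 and 5.62 in the first design and 3.44, 3.43 and 3.72 in the second, with replicate 1 close to the others. EXPA7 and SGN3 were both lowest in replicate 1, at the signals given above. The part of RNA quality, labelling or cell makeup in the plastid deviations was not tested.

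**Figure D3:**
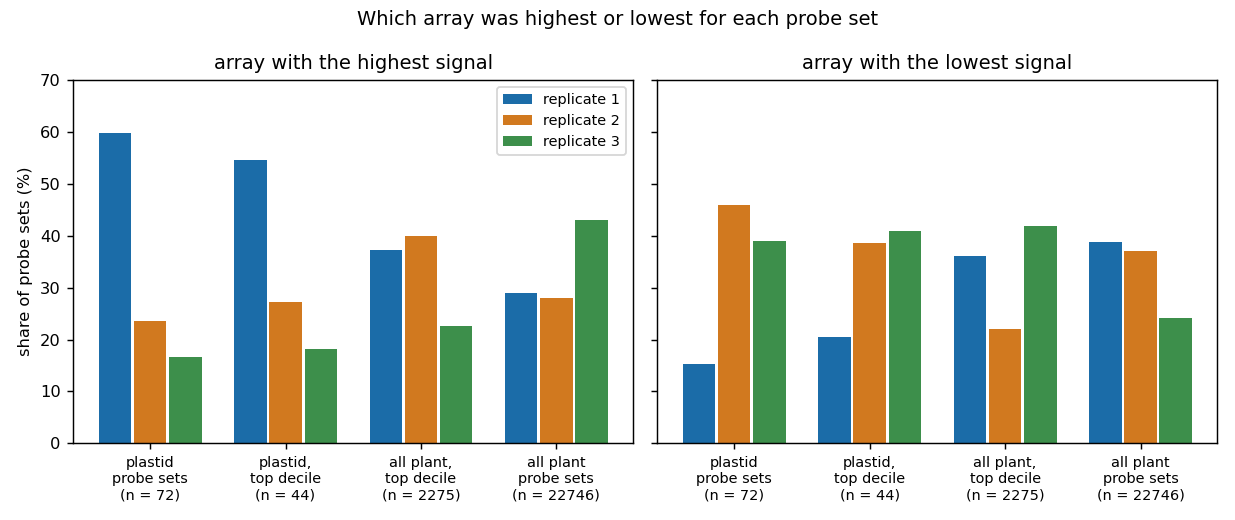
Share of probe sets (%) for which each replicate had the highest (left) or the lowest (right) signal of the 3 arrays, for the 72 plastid probe sets, the 44 of them in the top decile of mean level, all 2275 plant probe sets in that decile and all 22746 plant probe sets. Replicate 1 is the highest array for 59.7% of plastid probe sets and for 29.0% of all plant probe sets.

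The shift towards replicate 1 was uneven among the classes. Replicate 1 was highest for 6 of 6 cytochrome b6f probe sets, 9 of 11 NDH, 5 of 6 ATP synthase and 4 of 5 photosystem I ones. It was highest for 3 of 13 photosystem II probe sets, for which replicate 3 was highest in 6 and replicate 2 in 4. In the gene-expression class of 18 the counts were 8, 6 and 4 for replicates 1, 2 and 3. rbcL, with the single probe set of Rubisco, was highest in replicate 2. Some members of a class lie in 1 transcription unit. The psbE unit gave 4 of the 6 photosystem II probe sets highest in replicate 3. The unit between psaC and rps15 gave 5 of the 9 NDH ones highest in replicate 1. The differences between classes were not tested.

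In some transcription units the genes deviated alike. psbE, psbF, psbL and psbJ form 1 unit, of which psbE and psbF encode the subunits of the cytochrome of photosystem II. psbE had 491, 392 and 643 in replicates 1, 2 and 3, and psbF had 1132, 836 and 1686. psbL had 698, 496 and 863, and psbJ had 1566, 1210.5 and 2528. All 4 were highest in replicate 3 and lowest in replicate 2, while 12 of the 72 plastid probe sets were highest in replicate 3. Their median log2 deviations were -0.03, -0.45 and 0.45 in the 3 arrays, and -0.02, -0.51 and 0.50 after quantile normalization.

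The NDH genes of the unit between psaC and rps15 went another way. ndhE had 509.9, 287 and 326, ndhG 494, 233 and 257 and ndhA 654, 320.0 and 345 in replicates 1, 2 and 3. ndhI had 2729.5, 1472 and 1029.9. These and ndhH were highest in replicate 1 in 5 of 5 cases and lowest in replicate 2 in 4 of 5, with median log2 deviations of 0.65, -0.38 and -0.27. The genes at the ends of this unit did not follow. psaC was highest in replicate 3, and rps15, with 549, 1121 and 421, was highest in replicate 2.

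Other units gave mixed patterns. atpI, atpH and atpF were highest in replicate 1 and lowest in replicate 2, at 1296, 718 and 1214 for atpH and 833, 395 and 614 for atpF. atpA of the same unit was the reverse, lowest in replicate 1 and highest in replicate 2. psbD, psbC and psbZ were all lowest in replicate 3, with 1799, 1459 and 713 for psbC and 3376, 3954 and 2500.4 for psbZ. In the psbB unit, psbB and petB varied little, at the signals given above, while psbT, a small subunit of photosystem II, had 326, 207 and 425 and psbH moved as given above. psbN, an assembly factor gene that lies among them, had 251, 274 and 234.

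Over all units, pairs of probe sets from 1 unit were set beside pairs from different units. Of the 92 pairs within 1 of the 10 units, 39 (42.4%) had the same highest array, against 39.5% of the 811 pairs from different units. The same lowest array was shared by 45.7% within units, against 41.6% between them, and the same order of all 3 arrays by 25%, against 20.5%. The median distance between the deviations of 2 probe sets (root of the summed squares over the 3 arrays, log2) was 0.64 within units and 0.73 between them. Over all 2556 plastid pairs, which include genes of no unit, the shares were 43.2%, 37.6% and 21.5%, and the distance was 0.71. For the 32 pairs of next neighbours in a unit the distance was 0.55, against 0.71 for the 36 other pairs of next neighbours, and 53.1% against 50% shared the highest array. The lowest array was shared by 53.1% of the next neighbours in a unit and by 36.1% of the others. Pairs share genes and arrays, so these shares carry no test, and the units singled out above were chosen after their values were seen.

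**Figure D4:**
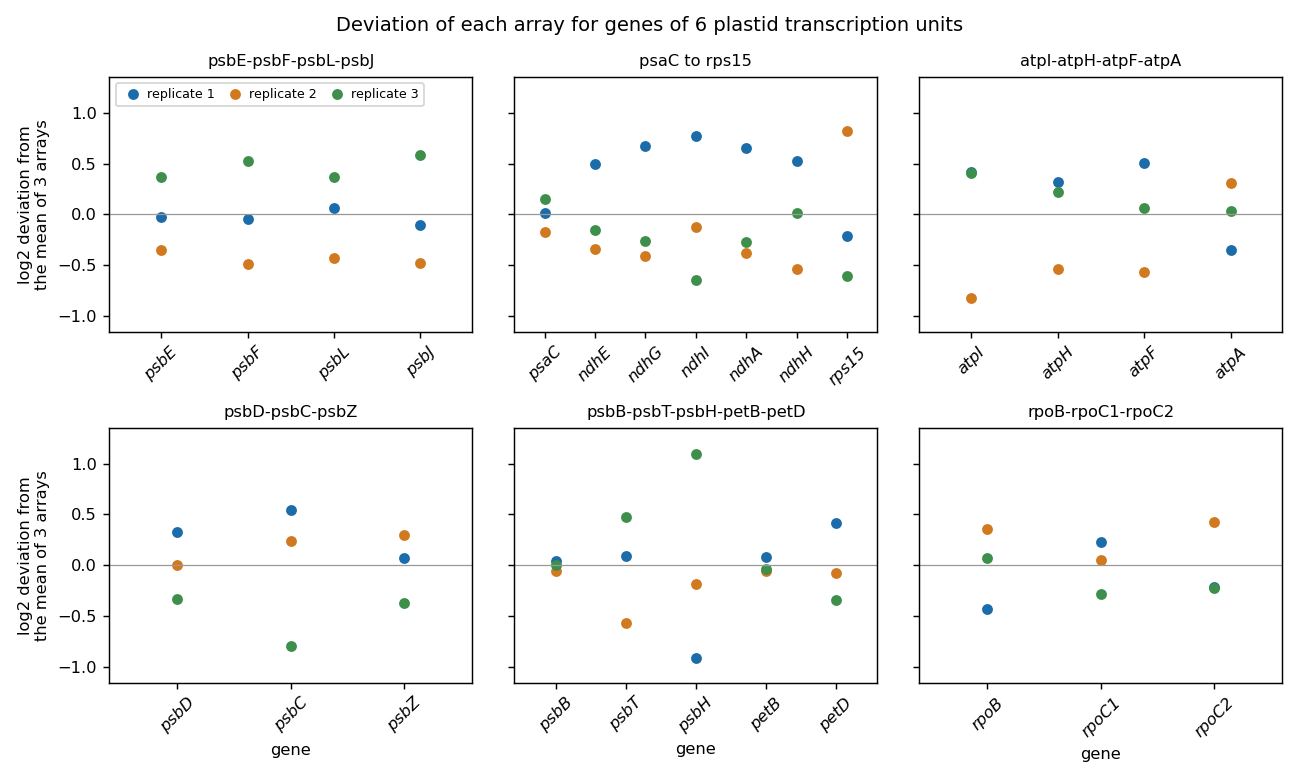
Log2 deviation of each array from the mean of the 3 arrays for the named genes of 6 plastid transcription units, 1 point per array. The 4 genes of the psbE unit share 1 order of the arrays, the 5 ndh genes of the psaC unit have replicate 1 highest, and the psbB unit mixes steady genes (psbB, petB) with variable ones (psbH, psbT).

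Without regard to level, the spread of the plastid probe sets between arrays was close to that of all plant probe sets. Their median SD was 0.36 (log2), against 0.40 over all plant probe sets. At like level it was somewhat larger: in the top decile it was 0.31 for the 44 plastid probe sets and 0.27 for all plant ones. There, 33 of 44 plastid probe sets (75%) stayed within a 2-fold range, against 2006 of 2275 plant probe sets (88.2%). The 5 most variable were psbH, ndhF, petN, ycf2 and rpl36, with SDs between 0.90 and 1.02. ycf2, a large envelope-linked protein, was highest in replicate 2 and lowest in replicate 3. The steadiest, after psbB, were atpE and petB, at the signals given above.

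Nuclear genes that serve the plastid genome could be matched in few cases. Only probe sets that the annotation gives to that gene alone were used. Of the 6 sigma factors and the 12 proteins associated with the plastid-encoded polymerase, 0 were matched to a probe set here. RPOTMP (AT5G15700), a phage-type polymerase of mitochondria and plastids, had signals of 8.82, 5.92 and 10.1 in replicates 1, 2 and 3. It did not pass against the reference level (log2 difference -0.71 ± 0.26, SE, adjusted p = 0.0546 in limma's test). RPOTMP lay below the median of plant probe sets (log2 difference -2.83, adjusted p = 0.000438 in limma's test), as did 37.8% of all plant probe sets. Of 31 nuclear photosynthesis genes 2 were matched. ATPC1, the gamma subunit that joins the plastid-encoded subunits of the ATP synthase, had 214, 182 and 184 (14.6-fold over the reference level, adjusted p = 6.76e-05). LHCB4.1, an antenna protein of photosystem II, had 119, 115 and 70.3 (7.49-fold, adjusted p = 0.000255). LHCB4.1 did not pass against the median of plant probe sets (adjusted p = 0.0577), while ATPC1 did (adjusted p = 0.00164).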

How the data were processed

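RNA of sorted cells labelled mature endodermis was measured on 3 arrays. Each array has a column of linear probe set intensities, deposited by the authors. The submitters' processing notes name MAS5, which combines perfect-match and mismatch probes into 1 signal. Version, scaling target and detection calls of that step are unknown here, and the mismatch correction makes low signals less steady. All 22810 values per array were above 0, with 64 control probe sets. Depth has no counterpart on arrays, whose number limits the precision.

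Genes were named through the platform annotation, which gave 13513 plant probe sets 1 symbol, 503 several and 8730 none; plastid probe sets listing 2 copies of 1 symbol were named by it. For the 22746 plant probe sets, log2(signal) minus the array's reference level (90th percentile of 27 Bacillus subtilis control probe sets) was compared with 0 by limma 3.58.1 under R 4.3.3 (an intercept fitted by lmFit, then eBayes, two-sided), Benjamini-Hochberg adjusted over all of them, at a threshold of 0.05. The code was tested on simulated data. Signals of different probe sets, medians, ranks and deviations from the mean of the arrays are descriptions. The median of plant probe sets as a second level was chosen after seeing the data.

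Values are given for the photosynthesis examples and the gene-expression class of the rule, the highest and lowest of each class and the 5 most variable; other plastid genes are added from the same tables. The members and gene lists were chosen with earlier results of these data known. Alternatives were other reference levels, a pseudocount of 16, quantile normalization, a trend in eBayes, leaving out _s_at and _x_at probe sets, other class members and leaving out each array.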

Additional observations from a re-analysis of the deposited data

How the results depend on the processing

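The count of plastid probe sets above the reference level was 72 of 72 under every alternative except 3. It was 68 when the highest Bacillus probe set set the level (51.2% of all plant probe sets passed there), 64 with the median of plant probe sets and 65 of 65 without _s_at and _x_at. With the highest Bacillus probe set, rpoB, psaA, ndhH and atpI did not pass in limma's test (adjusted p = 0.251, 0.162, 0.0781 and 0.0638). The count below the level was 0 in each. The median log2 difference from the reference level, 5.91, became 6.59 with the 75th percentile, 5.11 with the highest Bacillus probe set and 4.79 with log2(signal + 16), which shrink or raise it by construction. The photosynthesis median minus the gene-expression median, -0.54, kept its sign throughout and became -1.12 with the NDH genes added; it ran between -0.65 and -0.39 with 1 array left out. The median SD, 0.36, ran between 0.27 and 0.34 with 1 array left out, from fewer arrays. The median rank percentile, 93.1, ran between 92.5 and 93.5. Of the 3 matched nuclear genes 2 lay above the reference level, against 69.1% of all plant probe sets. Above the median of plant probe sets lay 1 of the 3, against 38.9% of all plant probe sets. No gene has several probe sets among the 72, so averaging them changes nothing. No paired analysis was possible because there is only 1 group. Low signals, such as those of rpoB and psaA, limit what these arrays can show.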

Other observations

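A further 8 probe sets of plastid genes lie outside the numbers of the rule. All 8 lay above the reference level and above the median of plant probe sets in limma's test (adjusted p at most 0.000334 and 0.0133). Of all plant probe sets, 69.1% lay above the first level and 38.9% above the second. matK, the plastid splicing factor, had signals of 3017, 3524 and 2906 in replicates 1, 2 and 3, and ccsA, which attaches haem to cytochromes, had 3904, 2189 and 2190. psbA, which encodes the quickly replaced core protein of photosystem II, had 1386, 3660 and 428. It was the least steady of the 8, highest in replicate 2 and lowest in replicate 3. psbK, a small subunit of the same complex, had 1126, 1104 and 369.6, also lowest in replicate 3. The 2 probe sets of rps12, a gene joined from separate transcripts by trans-splicing, had 117, 177 and 108 and 1397, 2229 and 1367. Both were highest in replicate 2 and lowest in replicate 3, though their signals differed in level. rpl32 had 1396, 657 and 1344, and rps16 had 203, 109 and 154, both lowest in replicate 2. Unlike the 72, these 8 were not mostly highest in replicate 1. Replicate 1 was highest for 4 of 8 and replicate 2 for 4 of 8, against 29.0% and 28.0% of all plant probe sets. Their median log2 deviations were 0.24, 0.30 and -0.26 in replicates 1, 2 and 3.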
